A study of Mus musculus with 6 samples.

Results

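Transglutaminases and peptidylarginine deiminases are 2 families of calcium-dependent enzymes that modify proteins after they are made. Transcripts of 9 of them were followed in mouse skin: Tgm1, Tgm2, Tgm3, Tgm5 and Tgm6, and Padi1, Padi2, Padi3 and Padi4. They were chosen by gene symbol from the 33308 genes of the deposited table. All 9 were present once in the table and all 9 passed the filter on low values used for testing, a mean of at least 1 FPKM (fragments scaled to gene length and library size) over the 6 samples, as did 13498 genes in all. Of these, Tgm6, Padi1, Padi3 and Padi4 averaged under 1 FPKM in control skin, so they passed through their level in treated skin.

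RNA-seq was carried out on skin from untreated mice (3 samples) and from mice treated with osimertinib for 42 days (3 samples). A day is given for the treated samples only, so it is not known whether the controls were taken at the same time. Osimertinib inhibits the epidermal growth factor receptor (EGFR), is used against lung cancer and has skin side effects, which are the stated subject of the series. The sources used here do not give the strain, sex or age of the mice, the dose, the body site or the stage of the hair cycle, nor is it stated that each sample is a different animal. The p-values therefore describe sample-to-sample spread, some of which may be technical. Libraries held 54112624 to 60719064 counts. Of 22 skeletal muscle marker genes none was at 0 in any control, yet their summed level was 177 FPKM in control 3 against 20346 to 63613 FPKM in the other 5 samples, so control 3 stood apart. The skin label was checked against keratinocyte markers, and the 13 suprabasal and granular markers summed to 687 FPKM or more in every sample.

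Transglutaminases join glutamine and lysine residues of neighbouring proteins by a bond that proteases cannot easily cut. In the outer epidermis this joins loricrin, involucrin and small proline-rich proteins into the cornified envelope, and in the hair follicle it hardens the inner root sheath and the medulla of the hair shaft. Peptidylarginine deiminases turn arginine residues into citrulline, which removes a positive charge, loosens filaggrin and trichohyalin from keratin filaments and prepares them for breakdown or for cross-linking. In people, inherited loss of TGM1 causes ichthyosis, loss of TGM5 causes a peeling skin disorder, and changes in TGM3, PADI3 or trichohyalin cause uncombable hair.

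The direction of the difference varied among the 9 enzymes. Tgm6, Padi1, Padi3 and Padi4 were higher in every treated sample than in every control, with fitted folds of 27.7, 14.9, 26.8 and 20.6. Tgm5 was lower in every treated sample than in every control, 4.15-fold. The groups overlapped for Tgm1, Tgm2, Tgm3 and Padi2. Among all tested genes the groups did not overlap in 11.3% of genes with the higher level in treated skin and in 9.38% with the lower. In the quasi-likelihood test of edgeR, adjusted over all tested genes, 0 of the 9 passed the threshold of 0.05, and 0% of all genes passed in either direction, while 7.22% were higher and 6.73% lower at an unadjusted p under 0.05, as were 3 of the 9 (Padi3 and Padi4 higher, Tgm5 lower). DESeq2 called 3.42% of genes higher and 2.96% lower, and of the 9 it called Padi4 as higher (adjusted p = 0.00203) and Tgm5 as lower (adjusted p = 6.56e-06).

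**Figure D1:**
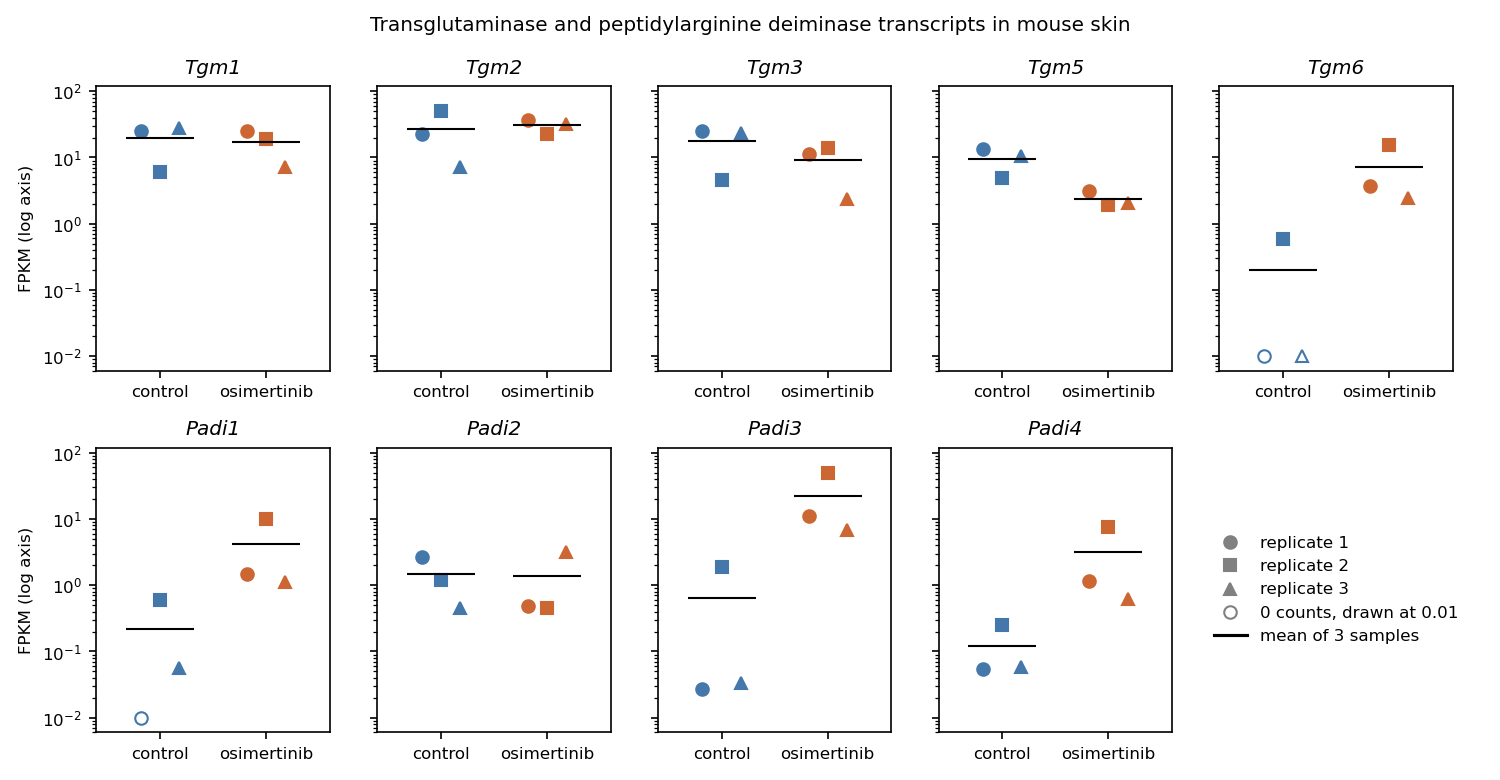
FPKM of each enzyme gene (log axis) in 3 control (blue) and 3 osimertinib (orange) skin samples, with a symbol per replicate number, the group mean as a line and samples with 0 counts drawn open at 0.01. In Tgm6, Padi1, Padi3 and Padi4 all treated samples lie above all controls, with control 2 the highest control and osimertinib 2 the highest treated sample, and in Tgm5 all treated samples lie below all controls.

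Padi3, the deiminase of the inner root sheath and hair medulla, had the largest FPKM of these 4 enzymes in each treated sample and in control 2. In controls 1 and 3 none of the 4 was above the 0.0592 FPKM of Padi4 in control 3, and Padi4 was above Padi3 in both. The level of Padi3, in TMM-adjusted counts relative to library size (CPM), was 0.110, 9.44 and 0.126 for controls 1, 2 and 3, against 46.1, 184 and 27.1 for osimertinib 1, 2 and 3. These rest on 6, 427 and 8 counts in the controls and on 2673, 11812 and 1664 in the treated samples. Control 2 was thus far above the other controls and still below the lowest treated sample. The log2 fold change was 4.74 ± 1.88 (SE, n = 3 per group; adjusted p = 0.344 in edgeR).

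Tgm6, a transglutaminase best known from neurons, followed Padi3 almost sample by sample. It had 0 counts in controls 1 and 3 (a count of 0 allows up to 3 counts, or 0.0548 and 0.0473 CPM), 135 counts in control 2, and 876, 3618 and 590 in the treated samples. On the CPM scale that was 2.98 in control 2 and 15.1, 56.4 and 9.62 in osimertinib samples 1, 2 and 3. The log2 fold change was 4.79 ± 2.01 (SE, n = 3 per group; adjusted p = 0.364 in edgeR). In the 4 samples where Tgm6 was detected, Padi3 stood at 3.13, 3.02, 3.22 and 2.79 times the FPKM of Tgm6 (control 2 and osimertinib 1, 2 and 3). The ratio therefore stayed within a narrow range while Tgm6 itself ran from 0.592 to 15.2 FPKM.

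Padi1, a deiminase of the upper epidermis and the follicle, was at 0, 3.29 and 0.221 CPM in controls 1, 2 and 3 and at 6.67, 40.2 and 4.86 CPM in osimertinib samples 1, 2 and 3. The order of the samples was again control 2 highest among controls and osimertinib 2 highest among treated samples. Its log2 fold change was 3.90 ± 1.78 (SE, n = 3 per group; adjusted p = 0.396 in edgeR).

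Padi4, the deiminase known for acting on histones in granulocytes, was at 0.329, 1.83 and 0.315 CPM in the controls and at 6.67, 40.5 and 3.49 CPM in the treated samples, in the order of replicates 1, 2 and 3. Its log2 fold change was 4.37 ± 1.27 (SE, n = 3 per group; adjusted p = 0.267 in edgeR). The summed level of neutrophil markers was also higher in treated skin. The 14 in the table summed to 4.72, 24.5 and 38.2 FPKM in controls 1, 2 and 3 and to 295, 105 and 839 FPKM in osimertinib samples 1, 2 and 3. S100a9 and S100a8 made up most of each sum in treated skin. They stood at 173 and 112 FPKM in osimertinib 1, 57.8 and 42.1 in osimertinib 2 and 499 and 317 in osimertinib 3. Of the 5 that passed the filter, all 5 had a positive log2 fold change (median 3.64, or 2.27 without osimertinib 3). Groups were separate and higher for 3 (S100a8, S100a9 and Clec4d), against 11.3% of all tested genes. In edgeR 0 passed, and in DESeq2 3 passed as higher, against 3.42% of all tested genes. Clec4d was under 1 FPKM in each control, so it passed the filter through its level in treated skin. S100a9, an abundant neutrophil protein, was at 0.110, 6.65 and 9.49 CPM in the controls and 107.9, 32.9 and 299.9 CPM in the treated samples. Ly6g, a defining surface marker, was at 0 in all 3 controls and 2 treated samples. Mpo was at 0 in 1 control and 3 treated samples, and Elane in 1 control and 2 treated samples. Mmp8, Ltf, Retnlg, Cxcr2 and Camp were instead at 0 in more controls than treated samples. As a percentage of the marker sum, Padi4 was at 1.17%, 1.03% and 0.155% across the controls, against 0.390%, 7.31% and 0.0744% with osimertinib. The part of neutrophils in the Padi4 difference was not tested.

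The size of these 4 differences depended on 2 samples. Without osimertinib 2 the log2 fold changes were 3.65 for Tgm6, 3.51 for Padi3, 2.31 for Padi1 and 2.63 for Padi4. Without control 2 they were 9.50 for Padi3, 7.23 for Padi1 and 5.73 for Padi4. Tgm6 was then at 0 in both remaining controls. Its treated mean of 27.0 CPM was 493 times the larger upper limit there, 0.0548 CPM, taking 3 counts per library. That limit covers counting error only, and the mean includes osimertinib 2 at 56.4 CPM, against 15.1 and 9.62 CPM in osimertinib 1 and 3. In each of these fits the 4 genes were still higher in every treated sample than in every remaining control.

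Markers of growing follicles were higher in the same samples. The inner root sheath and medulla list summed to 95.7 to 124 FPKM in controls and to 242 to 1775 FPKM in treated skin. The sum does not show how far its genes differed among controls. Their mean log2 CPM, each gene centred on its own mean, was −3.60, 0.57 and −3.82 in controls 1, 2 and 3. In osimertinib 1, 2 and 3 it was 1.45, 4.04 and 1.36. The 13 hair cortex and cuticle markers summed to 19.7 to 97.7 FPKM in controls and 280 to 2678 FPKM in treated skin. All 13 hair cortex and cuticle markers had a positive log2 fold change, and 7 of them had separate groups. In each of these 2 lists 0 genes passed in edgeR and 2 passed as higher in DESeq2 (3.42% over all tested genes). In the sheath list 8 of 11 genes were higher in every treated sample than in every control (11.3% over all tested genes). Krt75 (−0.93), Gata3 (−0.30) and Cuedc1 (−0.10) were not. The sheath keratins Krt25, Krt28 and Krt72 were each at 0 in 1 control. In a piece of whole skin, fewer cells of a type and less RNA per cell cannot be told apart, nor can more cells and more RNA per cell. As a percentage of the sheath sum, Padi1 was at 0%, 0.506% and 0.0449% in controls 1, 2 and 3. In osimertinib 1, 2 and 3 it was at 0.614%, 0.554% and 0.457%, so its groups overlapped. On this scale Tgm6, Padi3 and Padi4 stayed higher in every treated sample. Control 2, the highest control, was at 0.506%, 1.59% and 0.216% for these, and the lowest treated sample at 0.857%, 2.76% and 0.254%. The part of follicle content in the 4 differences was not tested further.

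Among the tested genes, the pair nearest in pattern over the 6 samples to both Tgm6 and Padi3 were the inner root sheath keratins Krt71 and Krt73. Likeness was measured as the root mean square difference of log2 CPM over the 6 samples after centring each gene, so a smaller value means a closer pattern. Tgm6 and Padi3 differed from each other by 0.26, the closest of all pairs among the 9. Tgm6 was 0.44 from Krt71 and 0.45 from Krt73, and Padi3 was 0.43 from Krt73 and 0.45 from Krt71. Tgm6 had 0 counts in controls 1 and 3, so its log2 CPM there (−4.85 in both) was set by the prior count of 2. The distances from Tgm6 therefore depend in part on that choice. Krt71, a keratin of all inner root sheath layers, stood at 0.511, 55.0 and 0.347 CPM across the controls, against 122, 861 and 85.4 CPM with osimertinib, the same order of samples. Padi1 was nearest to the hair keratin-associated protein Krtap1-5 (0.48) and to Crym (0.67) and S100a3 (0.68), a calcium-binding protein of the hair cuticle. Padi4 was nearest to Csdc2 (0.33), Ly6g6d (0.40) and the follicle calpain Capn12 (0.41). With 6 samples and 13498 genes to search, close matches are found for most genes, so these distances are descriptions.

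**Figure D2:**
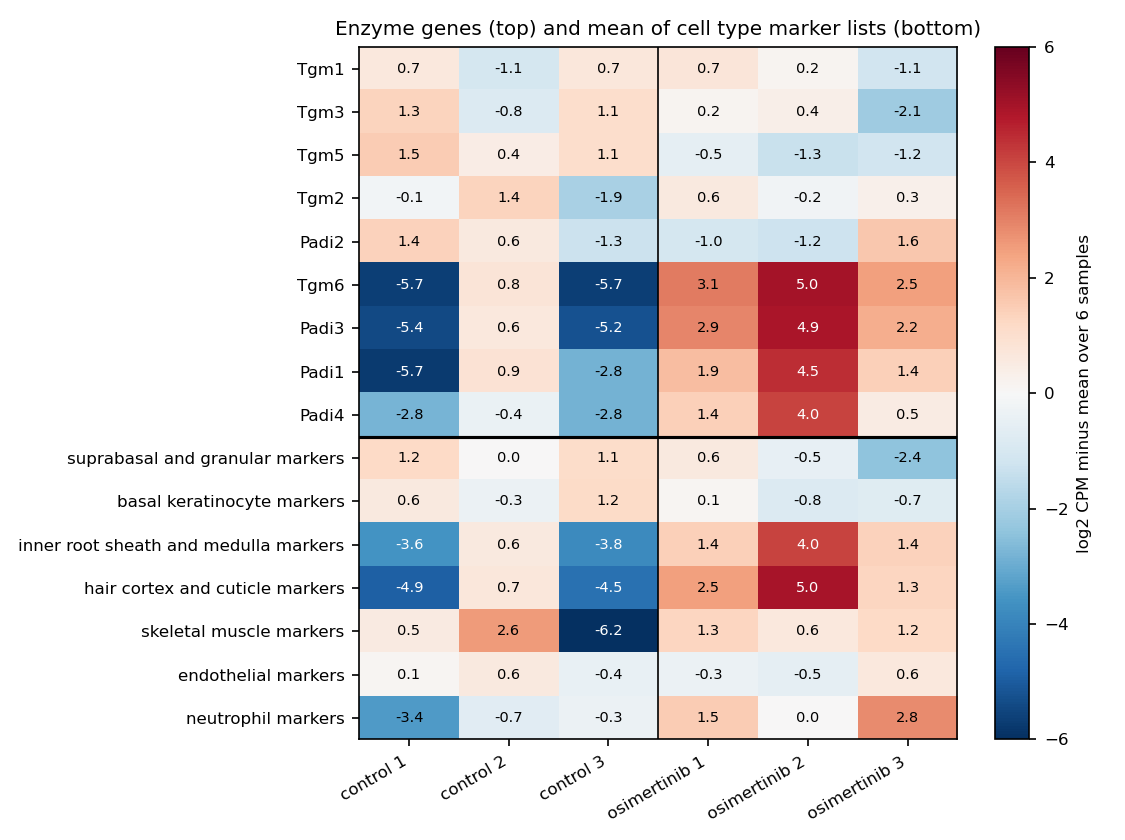
Centred log2 CPM (each gene's 6-sample mean subtracted) for the 9 enzymes (top) and the mean of the same value over the genes of 7 marker lists (bottom). No enzyme is in these lists. Tgm6, Padi3, Padi1 and Padi4 share the colours of the sheath and hair cortex rows, Tgm1 and Tgm3 are lowest in control 2 and osimertinib 3, and Tgm2 is lowest in control 3, as the muscle row is.

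The 4 enzymes lie in 2 gene clusters, whose other members had overlapping groups or too few counts to test (positions on GRCm38). Padi4 (chromosome 4, 140745865 to 140774236), Padi3 (140785365 to 140810648) and Padi1 (140812983 to 140845778) lie side by side on the reverse strand, with 2.33 kb between Padi3 and Padi1 and 11.1 kb between Padi4 and Padi3. Padi2 (140906344 to 140952586) begins 60.6 kb beyond Padi1 on the forward strand, and Padi6 (140727355 to 140742643), the deiminase of the egg, lies on the other side of Padi4. Padi6 had 0 to 10 counts per sample. Outside the deiminases, Rcc2 on one flank had a log2 fold change of 1.15 ± 0.31 with groups that did not overlap, and Sdhb on the other 0.03 ± 0.52 (SE, n = 3 per group). Tgm6 (chromosome 2, 130112416 to 130154232) starts 100 kb downstream of the start of Tgm3 (130012349 to 130050399) on the same strand, and Tgm3 had the opposite sign of difference. The next gene after Tgm6, Snrpb, had a log2 fold change of 0.26 ± 0.15, also with groups that did not overlap.

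Since 4 enzymes of these clusters were higher in all treated samples and Tgm5 lower, the bases just upstream of their starts were compared. The 250 bases before the RefSeq start site in GRCm38.p6 (for Tgm6 the start that the deposited table also has), read 5′ to 3′ on the strand of the gene, are given for Tgm6 (chr2:130112166-130112415, forward), Padi3 (chr4:140810649-140810898, reverse), Padi1 (chr4:140845779-140846028, reverse), Padi4 (chr4:140774204-140774453, reverse) and Tgm5 (chr2:121085842-121086091, reverse), with motif matches in capitals.
Tgm6: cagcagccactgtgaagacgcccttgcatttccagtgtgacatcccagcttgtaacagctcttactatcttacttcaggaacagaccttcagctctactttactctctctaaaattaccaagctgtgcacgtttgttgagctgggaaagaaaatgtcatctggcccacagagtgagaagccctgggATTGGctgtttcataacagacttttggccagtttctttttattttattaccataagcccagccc
Padi3: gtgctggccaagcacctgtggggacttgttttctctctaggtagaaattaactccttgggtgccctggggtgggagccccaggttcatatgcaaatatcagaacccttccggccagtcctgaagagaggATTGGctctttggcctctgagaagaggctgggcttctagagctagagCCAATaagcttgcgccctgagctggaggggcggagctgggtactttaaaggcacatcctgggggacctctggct
Padi1: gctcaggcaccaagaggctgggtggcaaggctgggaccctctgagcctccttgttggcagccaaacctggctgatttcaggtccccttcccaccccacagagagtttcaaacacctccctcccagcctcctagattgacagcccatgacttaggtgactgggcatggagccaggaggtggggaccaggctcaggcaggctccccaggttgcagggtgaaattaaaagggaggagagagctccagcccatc
Padi4: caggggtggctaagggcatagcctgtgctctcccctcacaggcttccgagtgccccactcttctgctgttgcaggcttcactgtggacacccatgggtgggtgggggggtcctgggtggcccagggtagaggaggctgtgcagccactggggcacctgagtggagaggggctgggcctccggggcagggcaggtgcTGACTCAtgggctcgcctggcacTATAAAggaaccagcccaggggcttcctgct
Tgm5: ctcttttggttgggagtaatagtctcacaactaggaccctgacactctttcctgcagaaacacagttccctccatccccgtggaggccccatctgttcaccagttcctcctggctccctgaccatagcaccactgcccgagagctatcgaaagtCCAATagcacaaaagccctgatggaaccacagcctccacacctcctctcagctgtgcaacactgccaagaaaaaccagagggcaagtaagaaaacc
Both strands were searched for TATAAA (the TATA box), CCAAT (bound by NF-Y), TGANTCA (bound by AP-1), CTTTGAA (bound by LEF and TCF factors), its variant CTTTGAT (bound by the same factors) and AGATAA (bound by GATA factors), and no matches overlapped. CCAAT, held by 33.8% of 32851 upstream windows of the same length, was matched 64 bases before the start of Tgm6, 121 and 74 bases before that of Padi3 and 96 bases before that of Tgm5. The Padi4 window held TATAAA 31 bases and TGACTCA 54 bases before the start, motifs found in 12.4% and 6.75% of windows. The Padi1 window held none of the 6 motifs. CTTTGAA is in 4.46% of windows, CTTTGAT in 3.21% and AGATAA in 9.99%, and these 5 windows hold none of them. Tgm6 has another RefSeq start, at 130123275, whose window is not printed here. That window holds CTTTGAA (as TTCAAAG) 162 bases before the start. The Padi4 start in RefSeq lies 33 bases from that in the deposited table, and the other 4 starts are the same in both. The 4 enzymes that were higher thus shared no motif of this set in these windows.

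Tgm5, which cross-links envelope proteins in the upper epidermis (chromosome 2, 121046111 to 121085841), was the only one of the 9 that was lower in every treated sample. It stood at 48.8, 22.9 and 35.4 CPM in controls 1, 2 and 3 and at 11.6, 6.67 and 7.58 CPM in osimertinib samples 1, 2 and 3. The groups did not overlap, with control 2 the lowest control and osimertinib 1 the highest treated sample. The log2 fold change was −2.05 ± 0.36 (SE, n = 3 per group; adjusted p = 0.179 in edgeR), the smallest standard error of the 9, and it ran from −2.33 to −1.76 when each sample was left out in turn. The 3 genes nearest to it in pattern were Sectm1b (0.17), Serpina3g (0.22) and Ablim3 (0.26), each also lower in every treated sample.

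Tgm1 (chromosome 14, 55700009 to 55713492), the membrane-bound transglutaminase that starts the cornified envelope, was at 91.3, 27.9 and 91.5 CPM across the controls, against 96.2, 64.7 and 26.4 CPM with osimertinib. The low samples were control 2 and osimertinib 3, 1 in each group, and the log2 fold change of −0.17 ± 0.61 was within its error (SE, n = 3 per group; adjusted p = 0.958 in edgeR). Its nearest gene in pattern was Sfn (0.20), stratifin of differentiating keratinocytes.

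Tgm3, which must be cut by proteases to become active and works in both envelope and hair, was at 122, 28.1 and 103 CPM across the controls, against 55.6, 63.6 and 11.1 CPM with osimertinib. Control 2 and osimertinib 3 were again the low samples, and Tgm1 and Tgm3 were the second closest pair of enzymes (0.58). The log2 fold change was −0.96 ± 0.77 (SE, n = 3 per group; adjusted p = 0.635 in edgeR).

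The balance of these 3 epidermal enzymes was then compared within each sample. On the FPKM scale, Tgm3 stood at 1.02, 0.771 and 0.862 times Tgm1 in controls 1, 2 and 3 and at 0.442, 0.752 and 0.322 times in osimertinib samples 1, 2 and 3. Tgm5 stood at 0.536, 0.824 and 0.387 times Tgm1 in controls and at 0.121, 0.103 and 0.287 times in treated samples. Both ratios were lower in all treated samples than in all controls, the first by a small margin (exact permutation test, two-sided, p = 0.1 for each of 2 ratios, the smallest that 3 against 3 samples allow).

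Other epidermal transcripts also had negative differences. The 13 suprabasal and granular markers, of which none was at 0, summed to 2511 to 7266 FPKM in controls and to 4829, 2161 and 687 FPKM in osimertinib samples 1, 2 and 3, with all 13 at a negative log2 fold change (median −1.27, against −0.05 over all tested genes), 0 past the threshold in edgeR or DESeq2 and 0 with separate groups. The median was −2.04 without osimertinib 1 and −0.85 without osimertinib 3. As a percentage of that sum, Tgm5 was at 0.186%, 0.196% and 0.146% in controls and 0.0635%, 0.0896% and 0.303% in treated samples, so relative to these markers the groups overlapped. On the same scale Tgm1 was at 0.348%, 0.239% and 0.378% in controls and 0.527%, 0.869% and 1.05% in treated samples, above the controls in all 3. The part of epidermal content in the Tgm5 difference was not tested further.

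**Figure D3:**
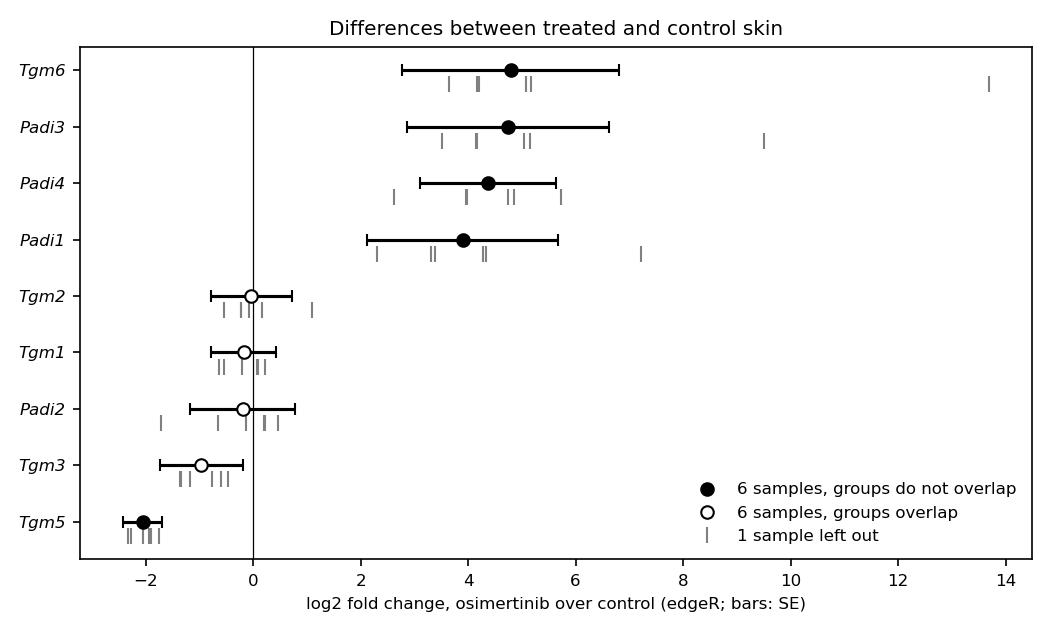
Log2 fold change of each enzyme, osimertinib over control, with its standard error (points and bars, filled where the groups do not overlap), and the same with 1 sample left out (grey ticks). The fitted value near 14 for Tgm6 is without control 2, where the remaining controls have 0 counts, so its size is not a measured fold, while the ticks of Tgm5 stay between −2.33 and −1.76.

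Tgm2 (chromosome 2, 158116402 to 158146436), the tissue transglutaminase of vessels, fibroblasts and muscle that also cross-links the matrix, was at 120.5, 342 and 35.0 CPM across the controls, against 203, 116 and 167 CPM with osimertinib. The treated samples all lay within the range of the controls, and the log2 fold change was −0.03 ± 0.75 (SE, n = 3 per group; adjusted p = 0.994 in edgeR). Control 2 was the highest and control 3 the lowest. Skeletal muscle and adipocyte markers had the same extremes. The muscle markers summed to 22189, 63613 and 177 FPKM in controls 1, 2 and 3 and 37031, 20346 and 34047 FPKM in osimertinib samples 1, 2 and 3. The adipocyte markers summed to 1557, 2547 and 271 FPKM in the controls and 813, 862 and 1545 FPKM in the treated samples, and the endothelial markers to 58.5, 61.7 and 47.8 FPKM and to 44.7, 43.1 and 89.0 FPKM. With a skeletal muscle marker score as covariate, the Tgm2 log2 fold change was −0.28 ± 0.29 (SE, n = 3 per group; adjusted p = 0.621 in edgeR). The part of these cell types in the Tgm2 level was not tested further. Without control 2 the log2 fold change was 1.10, and without control 3 it was −0.53. The tested genes nearest to it in pattern were Ehbp1l1 (0.07), Rhoq (0.09) and Mettl22 (0.10).

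Padi2, the most widely expressed deiminase, known from muscle, brain and macrophages, was at 15.6, 9.02 and 2.43 CPM across the controls, against 2.88, 2.51 and 18.2 CPM with osimertinib. The highest sample of all, osimertinib 3, and the lowest but 1, osimertinib 2, belonged to the same group, and the log2 fold change was −0.20 ± 0.98 (SE, n = 3 per group; adjusted p = 0.974 in edgeR). It turned positive without control 1 (0.46) and was −1.72 without osimertinib 3. Its nearest genes, Kcnc4 (0.39), Mup11 (0.45) and the adipocyte gene Adig (0.46), likewise had osimertinib 3 as the highest treated sample.

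Levels of different genes can be compared on the FPKM scale, which corrects for length. In controls the order by mean was Tgm2 (26.7 ± 21.9 FPKM, SD, n = 3), Tgm1 (19.5 ± 11.7), Tgm3 (17.9 ± 11.6), Tgm5 (9.64 ± 4.30), Padi2 (1.45 ± 1.13), Padi3 (0.639 ± 1.05), Padi1 (0.216 ± 0.327), Tgm6 (0.197 ± 0.342) and Padi4 (0.122 ± 0.113). Only the step from Tgm5 to Padi2 exceeded the spread between samples with ranges that did not overlap. In treated skin the order was Tgm2 (30.5 ± 7.01 FPKM), Padi3 (22.3 ± 23.2), Tgm1 (17.2 ± 9.22), Tgm3 (9.23 ± 6.15), Tgm6 (7.12 ± 7.03), Padi1 (4.15 ± 4.93), Padi4 (3.15 ± 3.93), Tgm5 (2.36 ± 0.616) and Padi2 (1.36 ± 1.55), and no neighbours in it differed by more than the larger of their SDs.

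The make-up of each family was given by the share of each enzyme in the summed FPKM. Padi3 made up 0.968%, 47.4% and 5.48% of the summed FPKM of the 4 deiminases in controls 1, 2 and 3, compared with 78.2%, 73.2% and 58.3% in osimertinib 1, 2 and 3. Padi2 made up 97.0%, 31.1% and 75.6% of it in controls and 3.36%, 0.686% and 26.9% in treated samples, so the 2 groups did not overlap for either enzyme. The deiminase sum itself was 0.606 to 3.92 FPKM in controls and 11.7 to 67.0 FPKM in treated skin. The sum of the 5 transglutaminases was 66.5 to 86.4 FPKM in controls and 45.6 to 80.4 FPKM in treated skin. Within it Tgm6 went from 0%, 0.891% and 0% in controls to 4.61%, 20.8% and 5.37% in treated samples, and Tgm5 from 15.5%, 7.42% and 15.4% to 3.82%, 2.65% and 4.56%. These shares were not tested.

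**Figure D4:**
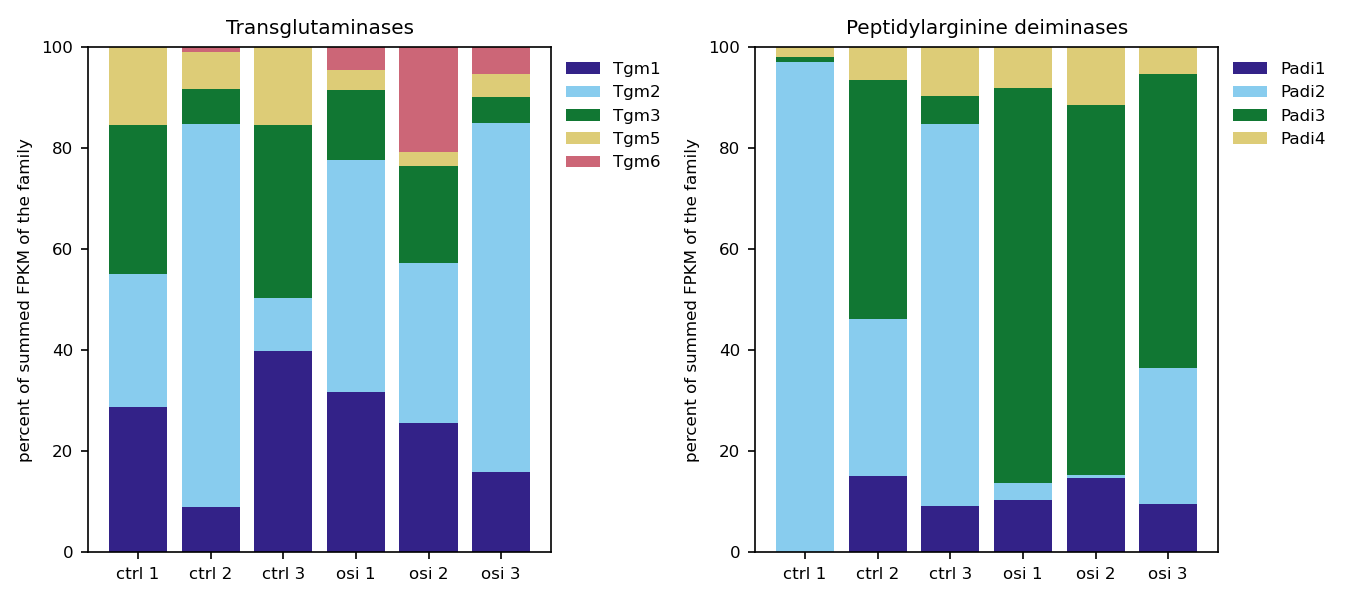
Share of each enzyme in the summed FPKM of its family, as stacked bars per sample (ctrl, control; osi, osimertinib; number, replicate). Padi3 is the largest deiminase share in all 3 treated samples and in control 2, and Padi2 in controls 1 and 3, while Tgm6 is visible mainly in treated skin and most in osimertinib 2 (20.8%).

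Of the other genes of both families, 1 of 6 passed the filter on low values. F13a1, the plasma factor XIII subunit made by macrophages, was at 78.5, 54.3 and 56.2 CPM across the controls, against 31.1, 13.2 and 42.8 CPM with osimertinib, lower in all 3, with a log2 fold change of −1.12 ± 0.43 (SE, n = 3 per group; adjusted p = 0.337 in edgeR). Tgm7, the neighbour of Tgm5, had 334, 40 and 229 counts in controls and 148, 24 and 11 in treated samples, which overlap. Tgm4 of the prostate had 30 to 177 counts per sample, Epb42 of red cells 3 to 24 and F13b 0 to 3.

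The proteins that these enzymes modify were described next. Of 15 structural proteins known to be citrullinated, all tested, 8 were higher in every treated sample than in every control and 1 was lower (11.3% and 9.38% over all tested genes). The 15 split into 8 with a positive and 7 with a negative log2 fold change. Their median of 4.21 (1.97 without osimertinib 2) was thus the smallest of the 8 positive values, not a level typical of the list. In edgeR 0 passed, and DESeq2 called 1 higher and 1 lower (3.42% and 2.96% over all tested genes). The 8 that were higher are follicle proteins, among them S100a3 (4.56 ± 1.66) and trichohyalin (Tchh), the main deiminase substrate of the sheath and medulla. Tchh was at 5.64, 26.6 and 8.72 CPM across the controls, against 65.4, 650 and 41.6 CPM with osimertinib (4.21 ± 1.30). Genes of the sheath marker list recur among the 15, such as Krt25, Krt28 and Krt72, so the counts of these lists are not separate observations. The epidermal substrates filaggrin (Flg, −0.74), Flg2 (−1.54), Krt1 (−0.97) and Krt10 (−1.41) had overlapping groups. Mbp, the myelin protein, was lower in every treated sample (−1.14 ± 0.29). Of 35 tested proteins that transglutaminases join into envelope and sheath, from 42 listed, 8 had a positive and 27 a negative log2 fold change (45.3% and 54.7% over all tested genes). Their median was −0.76, and it was −1.45 without osimertinib 1 and −0.28 without osimertinib 3. Of the 35, 2 were separate and higher (Tchh, counted here again, and Rptn, 1.54 ± 0.62), 0 were separate and lower, 0 passed in edgeR and 1 higher in DESeq2.

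Genes that activate or supply the enzymes had list medians near that of all tested genes. Of 11 tested proteases and inhibitors around transglutaminase activation, 8 had a positive log2 fold change (median 0.17, and 0.08 to 0.31 with 1 sample left out). Capn12, the calpain of the hair follicle, was at 0.986, 3.62 and 0.914 CPM across the controls, against 9.70, 78.4 and 12.1 CPM with osimertinib (4.19 ± 1.10, adjusted p = 0.253 in edgeR and 0.000536 in DESeq2), and the cysteine protease inhibitor Cst3 was lower in all treated samples (−0.73 ± 0.29). Ctss, cathepsin S, a protease known to activate TGM3, had a log2 fold change of 1.44 ± 0.65 with overlapping groups, and Cst6, the inhibitor of these cathepsins, 0.17. Of 14 tested genes of calcium supply, which both families need, 5 had a positive and 9 a negative log2 fold change (median −0.07, or −0.34 without osimertinib 1 and 0.03 without osimertinib 3). Stim1, the calcium sensor of the endoplasmic reticulum, was lower in all treated samples (−0.62 ± 0.24), and the channel Trpv3, known to raise transglutaminase activity in keratinocytes, had 0.60 ± 0.44 with overlap. In both lists 0 passed in edgeR, and in DESeq2 1 of the proteases passed as higher (3.42% over all tested genes), which was Capn12.

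Further steps of envelope formation and filaggrin breakdown had mostly negative differences. Of 14 tested genes that make and attach envelope lipids, 12 had a negative log2 fold change (median −0.54, or −0.25 without control 1), led by the lipoxygenase Aloxe3 (−1.27 ± 0.62) and the lipid transporter Abca12 (−0.98 ± 0.57), with 0 separate and 0 past the threshold in edgeR or DESeq2. Of 12 tested genes of filaggrin processing and breakdown, 8 had a negative value (median −0.42, or −0.88 without osimertinib 1 and −0.18 without osimertinib 3). Spink5, the inhibitor of epidermal kallikreins, was at 342, 181 and 322 CPM across the controls, against 83.8, 35.5 and 22.0 CPM with osimertinib (−2.58 ± 0.56, adjusted p = 0.204 in edgeR), and the protease matriptase, St14, was higher in all treated samples (1.53 ± 0.41). DESeq2 called 1 higher and 1 lower in this list (3.42% and 2.96% over all tested genes), and edgeR 0.

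Of 28 tested transcription factors of terminal differentiation, 14 had a positive and 14 a negative log2 fold change (median −0.09, and −0.23 to 0.20 with 1 sample left out). Groups were separate and higher for 8 and separate and lower for 2 (11.3% and 9.38% over all tested genes). In edgeR 0 were called, and DESeq2 called 8 higher and 0 lower (3.42% and 2.96% over all tested genes). The 4 with the smallest p were the follicle factors Msx2 (3.84 ± 0.58), Hoxc13 (2.68 ± 0.43), Dlx3 (3.66 ± 0.61) and Lef1 (3.50 ± 0.68). Of 15 tested matrix and surface partners of tissue transglutaminase, 9 had a positive value (median 0.09, and −0.14 to 0.39 with 1 sample left out). Of the 15, 3 were separate and higher and 4 separate and lower, beside the same 11.3% and 9.38% over all tested genes. They include versican (Vcan, 1.98 ± 0.38), Tgfb1 (0.88 ± 0.20), the receptor Adgrg1 (0.91 ± 0.25) and syndecan 4 (Sdc4, −1.18 ± 0.37). In this list edgeR called 0, and DESeq2 3 higher and 1 lower, beside the same 3.42% and 2.96% over all tested genes.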

How the data were processed

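RNA-seq of 6 mouse skin samples was analysed, 3 control and 3 osimertinib, grouped by their titles. Polyadenylated RNA was made into dUTP-marked paired-end libraries with molecular identifiers, per the labels' protocols. Cutadapt 1.9 and build GRCm38 are named per the submitters' processing notes. The aligner, the counting tool and any use of strand or molecular identifiers in counting were not given in the sources used here. For some enzymes, signal from overlapping opposite-strand genes (for Tgm1, Tgm2, Tgm3, Tgm5, Padi1 and Padi2) may be mixed in. The authors deposited raw whole-number counts for each gene, and FPKM values, whose scaling to length and depth is named per the file headers. A further 6 value columns match no sample and were not used. Genes averaging 1 FPKM or more were tested with the quasi-likelihood test of edgeR 4.0.16 (R 4.3.3, TMM scaling, no covariate, two-sided, Benjamini-Hochberg over 13498 genes, threshold 0.05). SE is the log2 fold change over the square root of F. Alternatives used DESeq2 1.42.0 and limma 3.58.1, other scalings, filters and pseudocounts, a muscle covariate and left-out samples. The tests were checked on simulated counts, where DESeq2 recovered more of the changed genes than edgeR and also made more false calls. Named genes are all 9 enzymes, up to 4 genes of each list with the smallest p, others named to account for a count, and the 3 tested genes nearest each enzyme in centred log2 CPM (prior count 2), leaving out predicted genes. Flg, Flg2, Krt1, Krt10, Cst6 and Trpv3 were named after their values were seen. The enzymes and lists were chosen with earlier results of these data known. Promoter windows are from RefSeq, GRCm38.p6, in which all 9 except Tgm2 were found. Counting limits cover counting error only.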

Additional observations from a re-analysis of the deposited data

How the results depend on the processing

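Tgm6, Padi1, Padi3 and Padi4 stayed positive and Tgm5 and Tgm3 stayed negative under every alternative run for them. Tgm5 lay between −2.33 and −1.58 and passed only in DESeq2 (adjusted p from 6.56e-06 to 0.661 over 16 alternatives). Padi4 lay between 1.48 and 5.73 and also passed only in DESeq2 (adjusted p from 0.00203 to 0.736 over 15 alternatives). With DESeq2, 460 genes passed as higher and 398 as lower, among them 1 enzyme in each direction. With limma, 12 and 5 passed on log2(FPKM + 1), 1 and 1 on log2(FPKM + 0.1), and 3 were lower with quantile normalization. In edgeR, 2 passed as lower when genes had to average 5 FPKM and 1 as lower with the muscle score as covariate, against 0 in the main test. The causes of these differences in counts were not tested, and none of the limma or edgeR alternatives called an enzyme. With that filter at 5 FPKM, Padi3 was the only separate and higher enzyme, 1 in place of 4, since the other 3 are not tested there. With 1 sample left out, 4 to 5 enzymes were separate and higher and 1 to 2 separate and lower. The larger numbers were without control 2, where Tgm3 joined Tgm5 as lower and Tgm2 (1.10) joined the 4 higher enzymes. TMM scaling was recomputed on the remaining samples in these fits. On the CPM scale of the main fit, Tgm2 was at 120.5 in control 1 and 116 in osimertinib 2, so there it would overlap.

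The direction of 3 enzymes was not stable, and the cause was not tested. Tgm1 was 0.16 with the muscle covariate and ran from −0.63 to 0.23 with 1 sample left out. Tgm2 was 0.58 with quantile normalization, 0.53 and 0.57 with limma on log2 FPKM plus 1 and plus 0.1, 0.52 with the replicate block and −0.53 to 1.10 with 1 sample left out. Padi2 ran from −1.72 to 0.46 with 1 sample left out. In the fit with the replicate block, 0 genes passed in either direction. Same-numbered samples deviated from their group means with correlations of 0.22, 0.03 and −0.11 for numbers 1, 2 and 3, and control 2 correlated best with osimertinib 3, so the numbers were not taken as pairs. Family shares computed from counts moved by less than 1 SD in 18 of 18 cases. Depth limits statements on Tgm6, Padi1 and Padi3 in controls 1 and 3, which had 0 to 14 counts there.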
